A study of Mus musculus with 6 samples.

Results

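DNA damage signalling and repair was examined in mouse morulae through 40 genes chosen by symbol for their function, all of which were found among the 55364 genes of the expression table. The genes comprised *Trp53* and the damage kinases with their partners, adaptors that mark broken chromatin, end resection, homologous recombination, the Fanconi anaemia pathway, non-homologous end joining, base excision and single-strand break repair, nucleotide excision repair and 1 mismatch repair gene. Total RNA was compared between control KD and *Yy1* KD morulae of the BDF1 x BDF1 cross, with 3 libraries per group. The embryos came from in vitro fertilization of oocytes of females aged 8 to 12 weeks with sperm of males aged 10 to 12 weeks, the siRNA was injected into the zygote, and each library was made from 10 pooled morulae at 64 h after insemination. *Yy1* encodes a zinc finger transcription factor, and its knockdown acts on the whole embryo and is not a deletion. Because a library pools embryos, fewer cells with a transcript and less of that transcript per cell cannot be told apart. The labels do not say whether the pools of a group came from separate fertilizations, so the p-values below measure the spread between these pools.

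Cells detect broken DNA with the kinases ATM and ATR, which act through CHEK2 and CHEK1 and through p53 to halt the cycle or remove the cell. Breaks are then rejoined by end joining, in which the Ku ring captures the ends, or copied from the sister chromatid by homologous recombination, which starts from resected ends and needs BRCA1 and BRCA2. Damaged or mismatched bases are cut out by the excision pathways. Many of these transcripts are already supplied to the embryo by the oocyte.

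The knockdown was seen in every *Yy1* KD library. *Yy1* (chromosome 12, 108792973 to 108820148, GRCm38) was at 96.0, 100.2 and 89.8 TPM in control KD and at 8.73, 8.90 and 8.32 TPM in *Yy1* KD morulae, where TPM is the number of read pairs per exon length scaled to the same total in every library. This is a log2 fold change of -3.32 with a standard error of 0.09 (limma, adjusted p = 6.71e-05). Fold changes throughout are of TPM + 1, *Yy1* KD over control KD, and adjusted p-values come from limma over all genes tested unless limma-voom is named. Libraries held between 11793509 and 24417789 read pairs on genes. The 9 early embryo markers were all present and summed to between 2579 and 2711 TPM in control KD and between 2237 and 2503 TPM in *Yy1* KD, without overlap. Of these 9, 1 was called lower (4.20% of all genes), namely *Tfap2c* (192, 179 and 179.7 against 135, 116 and 125 TPM, log2 fold change -0.54, limma adjusted p = 0.0174). Groups did not overlap for 3, all lower (17.2% of all genes), among them *Sox2* (log2 fold change -0.86, limma adjusted p = 0.0942). The part of this shift in the markers in the values below was not tested. The 8 cumulus and granulosa markers together reached at most 1.06 TPM in control KD libraries and 2.42 TPM in those of *Yy1* KD, and 5 of them were at 0 in every library. Oocyte transcripts summed to between 57.6 and 80.3 TPM in control KD and between 61.6 and 80.5 TPM in *Yy1* KD, and 0 of the 9 passed the test. Of the 17353 genes tested, 333 were upregulated and 728 downregulated at an adjusted p under 0.05, and quantile normalization gave 388 and 548.

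The repair genes covered a wide range of levels. The most abundant was *Ddb1*, an adaptor subunit of ubiquitin ligases. It had a mean of 376 TPM over the 6 libraries, above 98.0% of the genes tested. It was followed by the mismatch sensor *Msh6* (305 TPM), the strand break sensor *Parp1* (240.0 TPM), *Atm* (134 TPM) and *Chek2* (110 TPM), which were the 5 genes above 100 TPM. A further 19 lay between 10 and 100 TPM and 16 below 10 TPM, the lowest being *Atr* at 2.37 TPM. TPM divides by all annotated exon sequence of a gene, which is 23629 nt for *Atr* and 10338 nt for *Atm*, so the level of *Atr* is divided by the longer annotation. All 40 genes passed the filter of at least 1 TPM in at least 3 libraries, and the 39 whose exon length was known were covered by between 29 read pairs (*Ogg1*) and 25146 (*Ddb1*) in a library.

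**Figure D1:**
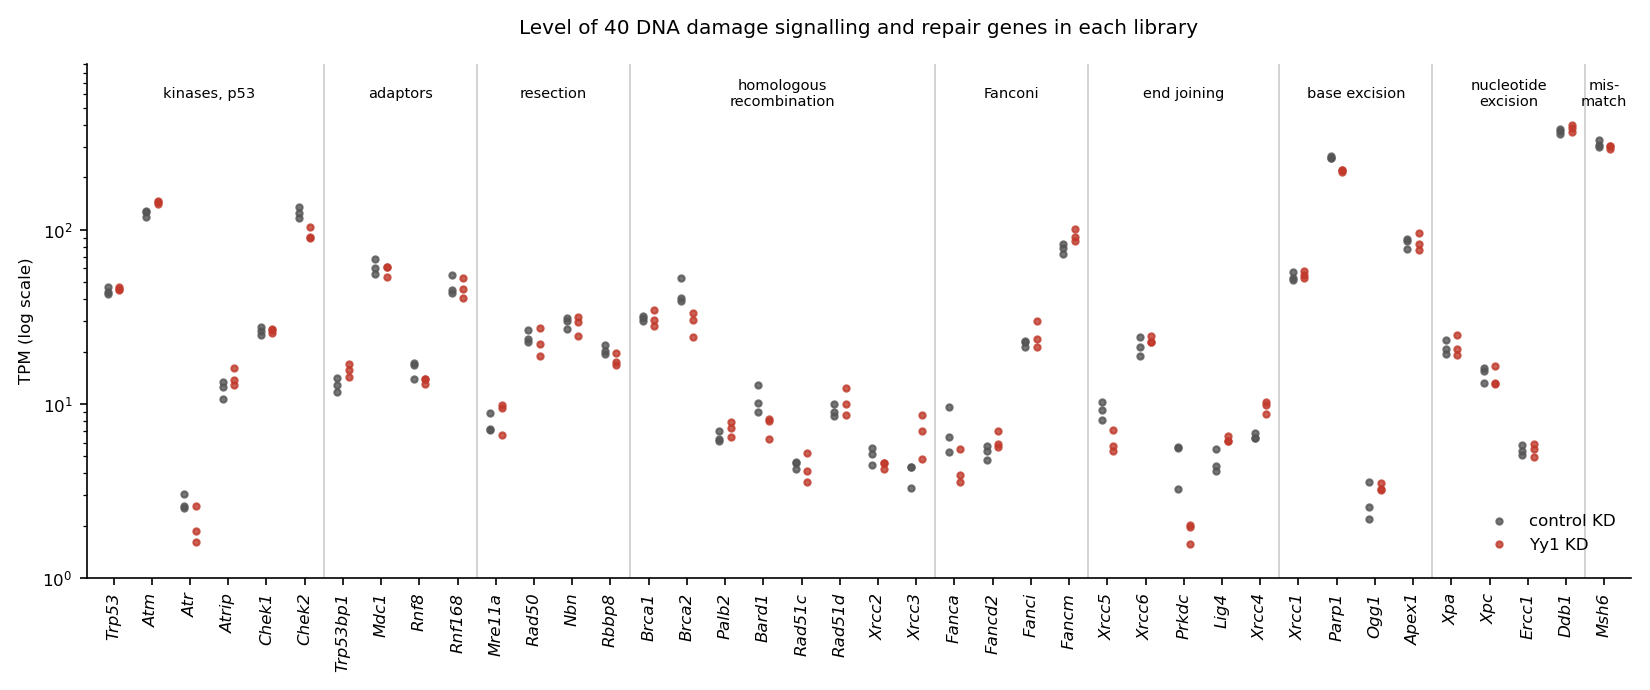
TPM of the 40 genes in each of the 6 libraries on a log scale, grouped by pathway. Grey points are the 3 control KD and red points the 3 *Yy1* KD libraries; levels span from *Atr* to *Ddb1*, and for most genes the points of both groups lie on top of each other.

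None of the 40 genes changed between control KD and *Yy1* KD morulae at an adjusted p under 0.05 in limma, while 6.11% of all genes tested did. At an unadjusted p under 0.05, 4 genes were higher and 6 lower, 10 in all, where 23.8% of all genes passed (9.35% higher and 14.4% lower). The 3 control KD values and the 3 *Yy1* KD values did not overlap for 12 genes (30.0%), 6 in each direction, against 30.1% of all genes (12.9% higher and 17.2% lower). The median log2 fold change was 0.01 over the 40 genes and -0.02 over all genes, and the change was at least 0.5 in size for 5 genes (12.5%), against 23.3% of all genes. The 95% interval of the log2 fold change lay between -0.5 and 0.5 for 23 of the 40. Their level is on the high side of the genes tested, with a median of 17.0 against 8.46 TPM, and their standard errors were smaller, with a median of 0.14 against 0.21 on the log2 scale. The choice of model mattered for the calls. On read pairs recovered from TPM, limma-voom called 6 of 39 genes, 3 higher and 3 lower, where 14.2% of all genes were called (6.01% higher and 8.15% lower).

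**Figure D2:**
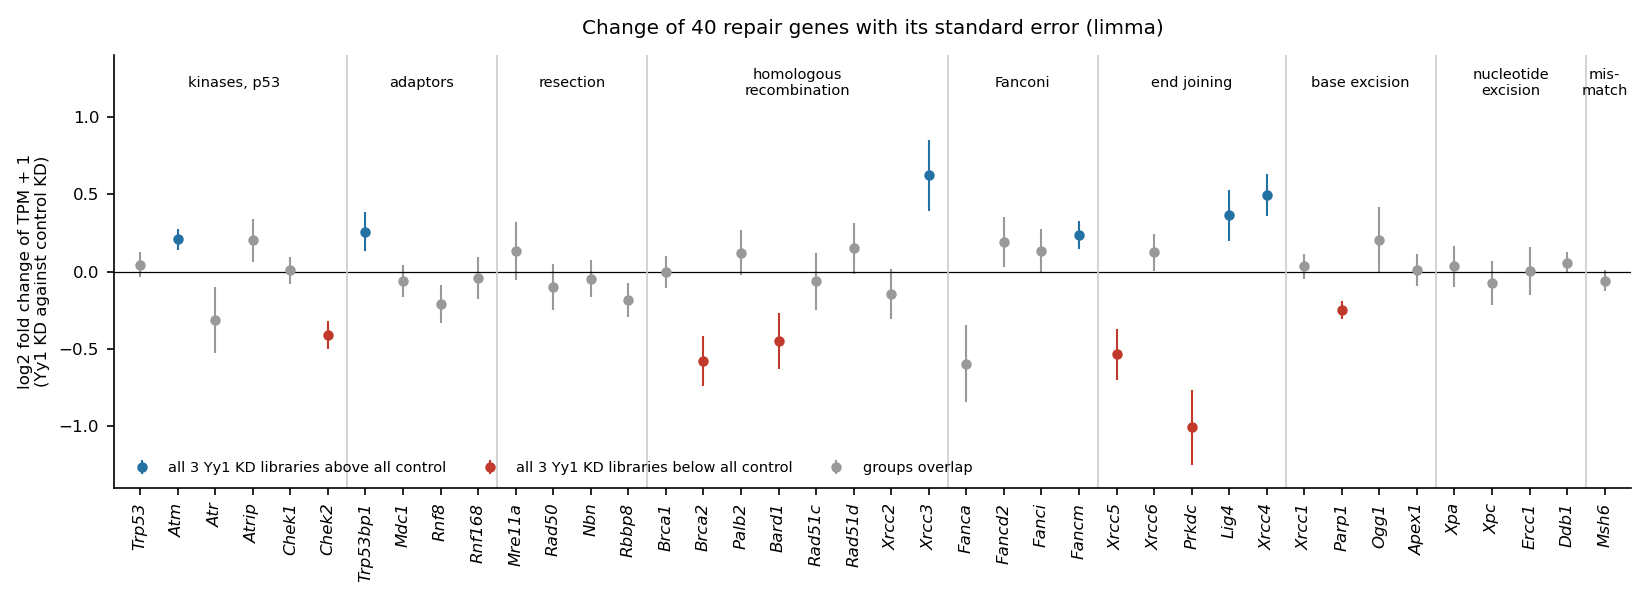
Log2 fold change of TPM + 1 between *Yy1* KD and control KD for the 40 genes, with the standard error from limma as error bar. Blue and red mark the 6 genes with all *Yy1* KD libraries above and the 6 with all of them below the control KD libraries, and grey the 28 genes whose groups overlap; 0 genes passed an adjusted p of 0.05.

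Among the signalling genes, the transcript of p53 itself did not pass the test. *Trp53* (chromosome 11, 69580359 to 69591873) was at 43.7, 47.2 and 42.6 TPM in control KD and at 47.1, 45.0 and 45.6 TPM in *Yy1* KD morulae. The values are interleaved, with a log2 fold change of 0.05 and a 95% interval of -0.14 to 0.24 (limma adjusted p = 0.778). A processed copy, *Trp53-ps*, was near the lower end of detection at means of 2.88 and 2.73 TPM. The ATR effector kinase *Chek1* was at 24.8, 26.4 and 27.7 TPM in control KD and 26.7, 25.6 and 27.0 TPM in *Yy1* KD, again with full overlap (log2 fold change 0.01, 95% interval -0.21 to 0.22, limma adjusted p = 0.969).

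*Atm* and *Chek2*, which act in sequence at broken ends, had groups that did not overlap, *Atm* higher and *Chek2* lower. They were 2 of the 6 genes for p53 and the damage kinases (33.3%, against 30.1% of all genes). *Atm* (chromosome 9, 53439149 to 53536740) was at 128, 119 and 126 TPM in control KD and at 144, 140 and 147 TPM in *Yy1* KD. All *Yy1* KD pools were above all control pools, by 0.21 on the log2 scale (standard error 0.07, limma adjusted p = 0.116), and limma-voom called it (0.25, adjusted p = 0.0218). *Chek2* (chromosome 5, 110839979 to 110874145) was at 117, 135 and 125 TPM in control KD and at 90.5, 89.6 and 103 TPM in *Yy1* KD, that is 75.2% of the control mean. Its log2 fold change was -0.41 (standard error 0.09), and its adjusted p of 0.0503 in limma was the smallest of the 40 genes and just past the threshold. It was called when genes under a mean of 5 TPM were left out (adjusted p = 0.0389, where 11.4% of the remaining genes were called) and with limma-voom (adjusted p = 0.0229). *Atr* was at 2.60, 2.54 and 3.04 TPM in control KD and at 2.59, 1.62 and 1.86 TPM in *Yy1* KD, with a log2 fold change of -0.31 and a wide interval of -0.82 to 0.20. Its partner *Atrip*, which shares exon sequence with *Trex1*, had means of 12.2 and 14.2 TPM and overlapping groups.

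Among the adaptors that build on ATM signalling, 1 of 4 had groups that did not overlap, where 30.1% of all genes did. *Mdc1*, which binds phosphorylated H2AX, was at 60.5, 55.4 and 67.7 TPM in control KD and 53.5, 60.9 and 61.4 TPM in *Yy1* KD (log2 fold change -0.06, limma adjusted p = 0.773). *Trp53bp1*, which shields ends from resection, was at 14.1, 11.8 and 12.8 TPM in control KD and 14.2, 15.7 and 17.0 TPM in *Yy1* KD. Its groups were separated by a very small gap (log2 fold change 0.26, limma adjusted p = 0.269). The ubiquitin ligases *Rnf8* and *Rnf168* had overlapping groups, with log2 fold changes of -0.21 and -0.04.

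In end resection, 0 of 4 genes had groups that did not overlap (30.1% of all genes). *Nbn*, the signalling subunit of the MRN complex, was at 27.1, 29.9 and 31.1 TPM in control KD and 24.5, 29.5 and 31.5 TPM in *Yy1* KD. *Rbbp8*, which encodes the nuclease partner CtIP, differed most in this group and was at 20.2, 19.3 and 21.9 TPM against 16.6, 19.7 and 17.5 TPM (log2 fold change -0.18, limma adjusted p = 0.374). *Mre11a* and *Rad50*, the nuclease and the tether of the complex, had log2 fold changes of 0.14 and -0.10.

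Within homologous recombination, 3 of 8 genes had groups that did not overlap (37.5%, against 30.1% of all genes), namely *Brca2*, *Bard1* and *Xrcc3*. *Brca1* was at 29.8, 31.2 and 31.8 TPM in control KD and 34.4, 30.4 and 28.0 TPM in *Yy1* KD, so that both means were close to 31.0 TPM (95% interval of the log2 fold change -0.25 to 0.24). *Brca2* (chromosome 5, 150522630 to 150570329), which acts on resected ends, was at 53, 40.7 and 39.0 TPM in control KD and 24.4, 33.2 and 30.3 TPM in *Yy1* KD. All *Yy1* KD pools were lower, at 66.2% of the control mean, and the log2 fold change of -0.58 (standard error 0.16) did not pass in limma (adjusted p = 0.0891) but did in limma-voom (-0.55, adjusted p = 0.0191). *Bard1*, the ring finger partner of BRCA1, was also lower in all pools, at 9.01, 10.1 and 12.8 TPM against 8.24, 6.31 and 7.95 TPM (limma adjusted p = 0.187). It was singled out after its values were seen.

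*Xrcc3*, which acts in the same pathway, had the largest positive change of the 40 genes and was at 3.30, 4.33 and 4.36 TPM in control KD and 4.86, 8.60 and 7.01 TPM in *Yy1* KD. Its log2 fold change was 0.62 (standard error 0.23, limma adjusted p = 0.159), and it rested on between 47 and 130 read pairs a library. It shares 12 nt of its 2750 nt of exon sequence with *Klc1*, and read pairs there cannot be kept apart without strand. The recombination genes *Rad51c*, *Rad51d* and *Xrcc2*, and the BRCA2 partner *Palb2*, had overlapping groups and log2 fold changes between -0.14 and 0.15.

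In the Fanconi anaemia pathway, which unhooks crosslinked strands, 1 of 4 genes had groups that did not overlap (30.1% of all genes). This was the DNA translocase *Fancm*, also the most abundant of the 4. It was at 83.2, 72.6 and 78.9 TPM in control KD and 90.4, 101 and 86.4 TPM in *Yy1* KD, higher in all pools by 0.24 on the log2 scale (standard error 0.09, limma adjusted p = 0.173, limma-voom adjusted p = 0.0490). *Fanca*, a scaffold of the core complex, was at 6.46, 5.33 and 9.58 TPM against 3.55, 3.90 and 5.51 TPM, with groups that overlap (log2 fold change -0.59, limma adjusted p = 0.211). *Fancd2* and *Fanci*, which are ubiquitinated together as a clamp, had log2 fold changes of 0.19 and 0.14. All 4 genes share exon sequence with another annotated gene, as 22 of the 40 do, among them *Brca2*, *Trp53bp1*, *Xrcc6*, *Xrcc4*, *Parp1*, *Ddb1* and *Msh6*. The shared length was 7 nt in *Parp1*, 34 nt in *Msh6* and 41 nt in *Brca2*, but 877 nt of 1422 nt in *Apex1*. The authors' counting split read pairs in shared sequence and ignored strand.

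Non-homologous end joining held the largest single difference, and its genes differed in both directions. *Prkdc* (chromosome 16, 15637866 to 15842235), the catalytic kinase that Ku recruits to an end, was at 5.55, 3.27 and 5.68 TPM in control KD and 1.98, 2.03 and 1.56 TPM in *Yy1* KD. Every *Yy1* KD pool was below every control pool, and the mean was 38.4% of the control. The log2 fold change of -1.01 (standard error 0.24, 95% interval -1.58 to -0.43) was the largest in size of the 40 and missed the threshold in limma (adjusted p = 0.0607), and limma-voom, which starts from its 102 to 559 read pairs, called it at -1.24 (adjusted p = 0.00843). *Xrcc6*, which encodes Ku70, was at 21.2, 18.9 and 24.3 TPM in control KD and 22.7, 22.8 and 24.5 TPM in *Yy1* KD (log2 fold change 0.12, limma adjusted p = 0.575).

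The remaining end joining genes, *Xrcc5*, *Xrcc4* and *Lig4*, were singled out after their values were seen. *Xrcc5* (chromosome 1, 72307421 to 72394952), which encodes Ku80, was at 10.3, 8.06 and 9.20 TPM in control KD and 7.04, 5.71 and 5.38 TPM in *Yy1* KD, lower in all pools (log2 fold change -0.53, limma adjusted p = 0.110). *Xrcc4*, the scaffold of the ligase, was at 6.79, 6.40 and 6.36 TPM in control KD and 10.3, 9.84 and 8.74 TPM in *Yy1* KD, higher in all pools (log2 fold change 0.50, limma adjusted p = 0.0810, limma-voom adjusted p = 0.0305). *Lig4*, the ligase itself, was at 5.50, 4.41 and 4.10 TPM in control KD and 6.11, 6.57 and 6.13 TPM in *Yy1* KD (log2 fold change 0.37, limma adjusted p = 0.237). Groups thus did not overlap for 4 of the 5 end joining genes, against 30.1% of all genes, a count over a very short list that was not tested.

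**Figure D3:**
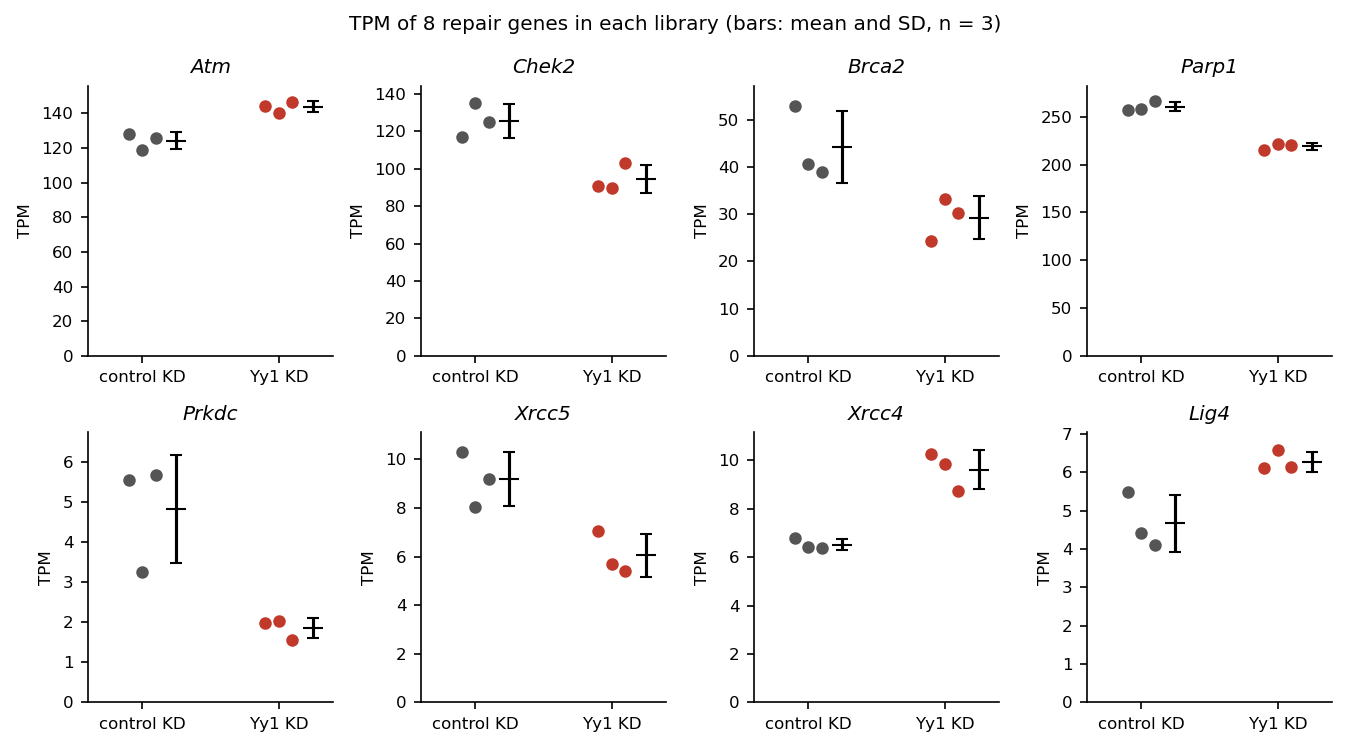
TPM of 8 repair genes in each library, with the mean and SD of 3 libraries as black bars and axes that start at 0. *Atm*, *Xrcc4* and *Lig4* sit higher and *Chek2*, *Brca2*, *Parp1*, *Prkdc* and *Xrcc5* lower in all 3 *Yy1* KD libraries, and none of these differences passed an adjusted p of 0.05 in limma.

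Several of these proteins work in pairs, such as the subunits of the Ku ring, so the levels of partner transcripts were also set against each other within a library. Of 11 ratios between known partners or counterparts, 7 had groups that did not overlap and 4 had groups that did. No share over other pairs of genes was computed for comparison. Most of the 7 hold a gene whose own groups did not overlap, such as *Atm*, *Chek2*, *Xrcc5* or *Brca2*, so the count largely restates the values above. The Ku70 transcript exceeded the Ku80 transcript 2.05, 2.34 and 2.64 times in control KD and 3.22, 3.99 and 4.55 times in *Yy1* KD. *Chek2* exceeded *Chek1* 4.69, 5.11 and 4.51 times in control KD and 3.38, 3.50 and 3.82 times in *Yy1* KD. *Xrcc4* to *Lig4*, by contrast, lay between 1.23 and 1.68 in all 6 libraries, and *Fanci* to *Fancd2* lay between 3.73 and 4.78. The ratios are given as a description and were not tested.

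In base excision, nucleotide excision and mismatch repair, 1 of 9 genes had groups that did not overlap, compared with 30.1% of all genes. This was *Parp1* (chromosome 1, 180568924 to 180601254), at 257, 258 and 266 TPM in control KD and 215, 222 and 221 TPM in *Yy1* KD. The libraries of each group lay within a few TPM of one another and the groups were far apart, although the difference was small, with 84.1% of the control mean and a log2 difference of -0.25 (standard error 0.06, limma adjusted p = 0.0607). The scaffold *Xrcc1* and the endonuclease *Apex1* had log2 fold changes of 0.03 and 0.01, and the glycosylase *Ogg1* 0.21 with few read pairs. *Ddb1* was at 371, 380 and 355 TPM in control KD and 402, 383 and 366 TPM in *Yy1* KD (95% interval of the log2 fold change -0.10 to 0.22). *Xpc*, which finds distorted helices, was at 13.2, 16.2 and 15.5 TPM against 16.5, 13.0 and 13.2 TPM (log2 fold change -0.07). *Msh6* was at 330, 297 and 308 TPM in control KD and 305, 303 and 290 TPM in *Yy1* KD (95% interval -0.22 to 0.11). The lesion verifier *Xpa* and the nuclease subunit *Ercc1* had log2 fold changes of 0.04 and 0.00.

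The same pathways hold further genes, and 89 of them were listed from general knowledge, of which 85 passed the filter. In this wider list 4 genes were upregulated and 3 downregulated in limma (1.92% and 4.20% of all genes). Groups did not overlap for 33 genes (38.8%, against 30.1% of all genes). The calls were spread over pathways. In nucleotide excision repair, *Cetn2*, a centrin that is also part of the XPC complex, rose by 1.50 on the log2 scale, with 4.08 ± 1.35 TPM in control KD against 13.2 ± 2.60 in *Yy1* KD (mean ± SD, n = 3, limma adjusted p = 0.0210), and the nuclease *Ercc5* rose by 1.21, with 7.86 ± 1.20 and 19.6 ± 4.15 TPM (limma adjusted p = 0.0196).

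Base excision repair had 2 downregulated genes in this wider list. The gap-filling polymerase *Polb* was at 35.5, 30.9 and 33.8 TPM in control KD and 18.6, 20.4 and 19.8 TPM in *Yy1* KD (log2 fold change -0.74, limma adjusted p = 0.0134). *Parp2*, the relative of *Parp1*, was at 23.4, 25.2 and 28.8 TPM in control KD and 14.9, 12.3 and 13.9 TPM in *Yy1* KD (-0.87, limma adjusted p = 0.0169). *Polq*, the polymerase of microhomology-mediated joining, changed by -0.56 (limma adjusted p = 0.0329), the Fanconi core gene *Fancb* by 0.64 (0.0301) and *Mdm2*, the ligase that degrades p53, by 0.70 (0.0464). Few of these calls held with fewer libraries. When each library was left out in turn, between 0 and 4 of the wider list were called, with 4 without *Yy1* KD replicate 1 and 0 without control KD replicate 3, and *Polb* was called in 4 of the 6 such fits.

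Genes that p53 activates are set beside the signalling genes. They were listed with their direction in these libraries already known, so their count is no independent evidence of it. Of 14 targets, 6 were upregulated and 0 downregulated in limma (1.92% and 4.20% of all genes), with a median log2 fold change of 0.69. *Mdm2* is among these 6 and was also counted in the wider repair list. *Plk2*, a polo-like kinase, was at 31.0, 18.3 and 10.6 TPM in control KD and 81.6, 68.5 and 53.6 TPM in *Yy1* KD. *Phlda3*, an inhibitor of AKT, was at 23.8, 20.7 and 11.8 TPM in control KD and 46.1, 53.5 and 49.5 TPM in *Yy1* KD. *Bbc3*, the apoptosis inducer PUMA, and *Eda2r*, a death receptor, had log2 fold changes of 1.23 and 1.18 (limma adjusted p = 0.0370 and 0.0466). *Bax* and *Cdkn1a* are among the same 14, were picked out after their values were seen, and were not called. *Bax*, the apoptotic pore protein, was at 36.5, 35.2 and 36.5 TPM in control KD and 28.7, 27.7 and 31.5 TPM in *Yy1* KD, all lower (log2 fold change -0.29, limma adjusted p = 0.107). The cell cycle inhibitor *Cdkn1a* had overlapping groups (0.17, limma adjusted p = 0.607). The control pools spread widely for these targets, with their summed level at 793, 613 and 499.8 TPM, lowest in replicate 3, and at 957, 906 and 843 TPM in *Yy1* KD. When a library was left out, 2 targets were called without control KD replicate 1, 1 without control KD replicate 3 and 0 in the other fits. The transcripts of *Trp53*, its upstream kinases and the negative regulator *Mdm4* had log2 fold changes between -0.41 and 0.21 in the same libraries. Kinase activity and p53 protein were not measured, and the part of damage signalling in the target levels was not tested.

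**Figure D4:**
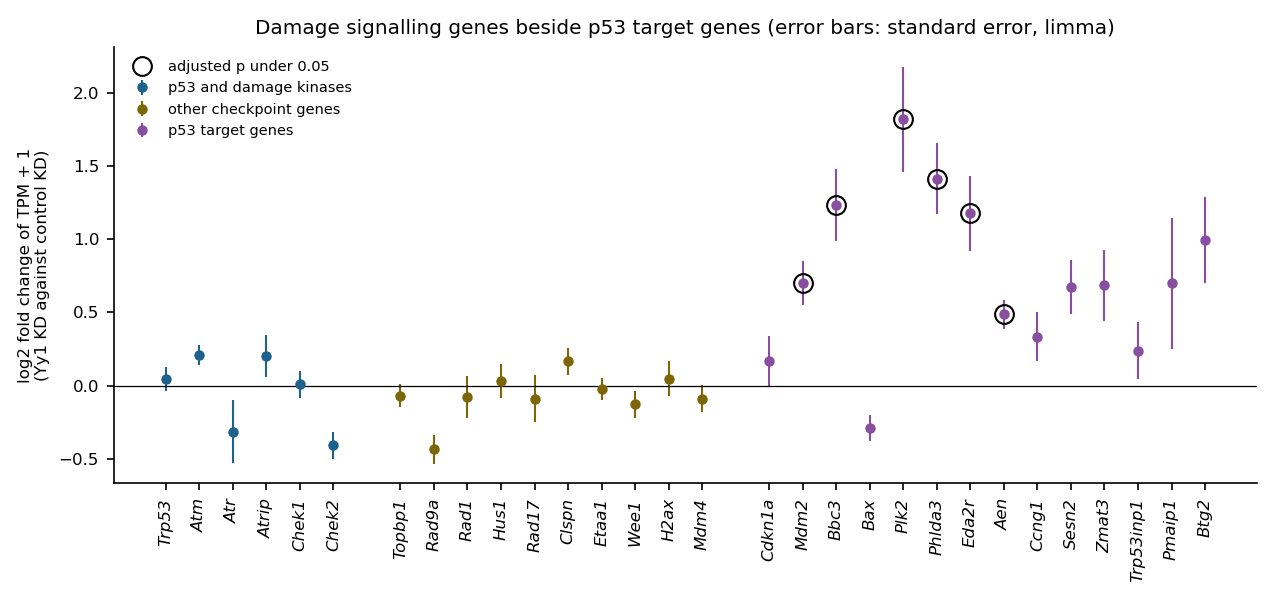
Log2 fold change of TPM + 1 with its standard error (limma) for *Trp53* and the damage kinases (blue), other checkpoint genes (brown) and p53 target genes (purple, with *Mdm2*). Circles mark an adjusted p under 0.05, which 6 of 14 targets and 0 of the signalling and other checkpoint genes shown reached.

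Promoters were searched for the YY1 consensus GCCATNTT on both strands (on the other strand AANATGGC) in RefSeq windows of GRCm38.p6 from 250 bases before to 50 bases after the annotated start. The table matched 32 of the 40 genes, all but *Rad50*, *Nbn*, *Rbbp8*, *Rad51d*, *Xrcc2*, *Fancd2*, *Prkdc* and *Xpc*. The consensus was in 0 of these 32 windows, against 6.96% of the 27025 genes in the table. Of the genes tested here, 9767 had a window, and 10.4% of these held the consensus. Among the wider repair list it was in 5 of 72 (6.94%). Those 5 sites are shown on the strand of the gene, with the match in capitals, since they are the promoters of these lists in which the letters occur.
*Etaa1* (chr11:17953849-17953876, minus strand): ccgacttgcaAAGATGGCgctgcacggt
*Wdr48* (chr9:119894897-119894924, plus strand): gtcaacatgcAAGATGGCggcccatcac
*Slx4* (chr16:4001712-4001739, minus strand): aaaatgacatAAAATGGCagtagctgtc
*Rpa2* (chr4:132768167-132768194, plus strand): gccctcagtaAAGATGGCcgcgcatgct
*Neil1* (chr9:57148480-57148507, minus strand): cattgacacgGCCATCTTgggtccccag
The match begins 9 and 12 bases after the start in *Etaa1* and *Wdr48* and lies before it in the others. None of the 5 genes was called, with log2 fold changes of -0.02, -0.11, -0.29, 0.29 and -0.73 in the order shown. The 7 called genes of the wider list are not among them. A match is a string of letters and not a bound site. Among genes tested that had a window, the consensus was in 27.7% of 517 downregulated, 14.1% of 192 upregulated and 9.33% of 9058 others.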

How the data were processed

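Total RNA from pooled morulae was made into libraries with the SMART-Seq stranded kit. The authors trimmed reads with Trim Galore (version 0.6.7), aligned them to mm10 with HISAT2 (2.2.1), removed ribosomal reads with bedtools, assigned pairs to GENCODE vM25 genes with featureCounts (2.0.1), splitting pairs shared by several genes and ignoring strand, and deposited TPM. Every library sums to the same total, so a gene's value depends on all others. The authors tested counts with edgeR. Since TPM was deposited, limma (3.58.1, R 4.3.3) with a variance trend was fitted here to log2(TPM + 1) of 3 against 3 libraries, without a block, over genes with TPM of at least 1 in at least 3 libraries. A fold change on this scale understates that of low genes. Two-sided p-values were Benjamini-Hochberg adjusted over all genes tested and called under 0.05. The script was tested on simulated libraries.

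Members and lists were chosen with earlier results of these data known. Named with full values were *Yy1*, called members, *Trp53*, *Atm*, *Atr*, *Chek1*, *Chek2*, the highest and the most changed member of each pathway, members whose groups did not overlap (added after their values were seen), up to 10 called genes of the wider list and up to 4 called p53 targets. *H2afx* is listed as *H2ax*. Coordinates and exon lengths came from GENCODE vM21 (GRCm38, the assembly of mm10), which holds 54312 of the 55364 identifiers in the same version. Read pairs were recovered as TPM times exon length. Between 80.6% and 81.6% of values under 20 pairs came out whole within 0.01 pairs. *Xrcc5* has no length in that version and was left out of limma-voom, which used genes with at least 10 pairs in at least 3 libraries. Library sizes in limma-voom were scaled by median ratios. Alternatives were limma-voom, a replicate block, each library left out, a pseudocount of 0.1, scaling by median ratios, quantile normalization, a constant prior variance (no trend), no filter, and a mean of at least 5 TPM.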

Additional observations from a re-analysis of the deposited data

How the results depend on the processing

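None of the 40 genes was called with a pseudocount of 0.1, no filter, either scaling, no variance trend, the replicate block or any library left out. A mean TPM of at least 5 called 1 (*Chek2*) and limma-voom 6. Against 7 calls in the wider repair list, no filter gave 3, the replicate block 1, limma-voom 11 and leaving out a library 0 to 4. Against 6 p53 targets, no filter and no variance trend each gave 0, the replicate block 2 and leaving out a library 0 to 2. Against 1061 calls over all genes, no filter gave 347, no variance trend 514, the replicate block 287, limma-voom 2111 (896 higher and 1215 lower) and leaving out a library 73 (without control KD replicate 3) to 412. Deviations from the group mean in libraries with the same number had correlations of -0.0039, 0.032 and 0.075, the last being the highest of all pairs. Values this small cannot show whether pools with the same number shared a fertilization or a preparation. Control KD replicate 1 correlated best with *Yy1* KD replicate 2, at 0.041. *Yy1* was called in all alternatives.

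The sign changed in some alternative for 12 of the 40 genes, all near 0. Quantile normalization gave log2 fold changes of 0.022 for *Mdc1*, 0.031 for *Rnf168*, 0.030 for *Nbn*, 0.069 for *Brca1* and 0.010 for *Xpc*. *Brca1* was at 0.021 with median-ratio scaling and 0.039 with limma-voom, and *Rnf168* at 0.0085 with limma-voom. With 1 library left out, log2 fold changes ranged from -0.031 to 0.045 for *Chek1*, -0.13 to 0.014 for *Mdc1*, -0.14 to 0.059 for *Rnf168*, -0.23 to 0.020 for *Rad50*, -0.12 to 0.055 for *Nbn*, -0.081 to 0.063 for *Brca1*, -0.18 to 0.039 for *Rad51c*, -0.00092 to 0.077 for *Xrcc1*, -0.074 to 0.079 for *Apex1*, -0.068 to 0.11 for *Xpa* and -0.045 to 0.064 for *Ercc1*. The cause was not tested. Genes with few read pairs have wide intervals.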

Other observations

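Repair genes outside the lists above were examined after the results on the 40 genes were known. The BRCA1-A complex reads ubiquitin chains laid by RNF8 and RNF168 and holds BRCA1 at broken chromatin. Of the 5 subunits listed here, 2 were downregulated in limma (4.20% of all genes) and 3 were not called. *Yy1* KD values lay below every control KD value for all 5 (17.2% of all genes), but the subunits were set apart as a list after these values had been seen, so the count is a description of genes chosen for it. The deubiquitinase *Brcc3* was at 7.01, 6.90 and 6.97 TPM in control KD and 1.57, 2.61 and 1.10 TPM in *Yy1* KD, 25.3% of the control mean (log2 fold change -1.56, standard error 0.24, limma adjusted p = 0.0196). *Babam1*, which encodes the stabilizing subunit MERIT40, was at 52.2, 48.9 and 48.2 TPM in control KD and 37.5, 24.8 and 29.9 TPM in *Yy1* KD (-0.70, limma adjusted p = 0.0463). The ubiquitin reader *Uimc1* (RAP80), the scaffold *Abraxas1* and *Babam2* had log2 fold changes of -0.51, -0.50 and -0.57 and were not called (limma adjusted p = 0.0606, 0.104 and 0.170). *Brcc3*, with 43 to 562 read pairs a library, was called in 2 and *Babam1* in 1 of the 6 fits that left out a library. Neither was called without a filter or with the replicate block. *Babam1* was also not called with quantile normalization (limma adjusted p = 0.0608) or without the variance trend (0.0880).

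The *Babam1* promoter window (RefSeq, GRCm38.p6) holds the YY1 consensus, which begins 31 bases after the annotated start. It was in 1 of 5 subunit windows, 2 of 6 windows of the genes that act with 53BP1 (*Shld1* and *Rnf169*) and 1 of 9 of translesion synthesis (*Polk*). The share was 10.4% of the genes tested that had a window. The 4 sites of these lists are shown with the match in capitals.
*Babam1* (chr8:71396876-71396903, plus strand): tccggccaggAAGATGGCggcttcctag
*Shld1* (chr2:132686835-132686862, plus strand): gccctcagttAAGATGGCcgcagctgac
*Rnf169* (chr7:99980420-99980447, minus strand): aacgggaaacAAGATGGCggcggcaggt
*Polk* (chr13:96542748-96542775, minus strand): cgctacagccGCCATCTTcctgccgggt
The log2 fold changes of *Shld1*, *Rnf169* and *Polk* were 0.29, -0.33 and 0.30, and none was called (limma adjusted p = 0.564, 0.417 and 0.340).
Of 7 genes that act with 53BP1 (*Rif1*, the shieldin genes and others), 0 passed the test (6.11% of all genes), and 1 had groups that did not overlap (30.1% of all genes), namely *Rif1* (203 ± 7.88 against 178 ± 6.20 TPM, SD, n = 3 each, limma adjusted p = 0.142). Of 11 translesion synthesis genes, 10 were tested and 0 passed (6.11% of all genes), with 8 of the 10 log2 fold changes above 0, as were 8186 of all 17353. Groups did not overlap for 2 of the 10 (30.1% of all genes), both higher in *Yy1* KD. These were *Rev1* and *Rev3l*, subunits of the error-prone bypass machinery (log2 fold changes 0.48 and 0.30, limma adjusted p = 0.101 and 0.157).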
